A study of Mus musculus with 6 samples.

Results

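The *Tdpoz* genes form a small family in one stretch of mouse chromosome 3. Rows of the expression table were taken by gene symbol, and all 7 symbols sought (*Tdpoz1*, *Tdpoz2*, *Tdpoz3*, *Tdpoz4*, *Tdpoz5*, *Gm10696* and *Gm10697*) were found among its 19489 genes. Of these, 6 had a mean of at least 0.5 FPKM (fragment counts scaled by gene length and by the depth of the library) over the 6 libraries and entered the tests. *Tdpoz1* stayed below it.

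RNA of mouse embryonic stem cells (ESCs) was sequenced on a BGISEQ-500 instrument. The methods give serum and LIF as the ESC culture in general, and do not state the culture of each library. The first group was the *Dppa3* OE ESCs, which carried the *Dppa3* coding sequence under a CAG promoter, and the second was the Con ESCs, labelled wild type, which carried the empty vector, both under puromycin selection. Each group had 3 libraries, numbered 1 to 3. The third of each group is also labelled D7, a label that neither the records nor the methods explain, so it was kept apart, and libraries 1 and 2 are called D0 here. Stable OE lines were grown from picked colonies, and transient OE ESCs were made as well. The methods name J1 or D3 ESCs. Which of these the libraries came from, and from how many lines, is not stated. The methods say of all results together that they came from independent experiments, and no source says which libraries were separate cultures. All p-values thus rest on the spread among these libraries, part of which may be technical. The strain entries run from 129S2/SvPas to 129S7/SvPas, 1 step for each record in turn, and whether the libraries differ in strain was not tested.

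TDPOZ proteins hold a TRAF-type (MATH) domain and a POZ (BTB) domain. They are relatives of Spop, an adaptor that brings substrates to the Cul3 ubiquitin ligase. In the mouse their transcripts are known from the 2-cell embryo, when the zygotic genome is first switched on, together with *Zscan4*, *Tcstv* and *Usp17l* genes. Rare ESCs in culture switch on the same set for a time and are called 2C-like cells. *Dppa3* (also known as *Stella*) is a maternal factor that is known to lower DNA methylation in ESCs.

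All 7 genes lie on chromosome 3 of build GRCm38, in 1 cluster and mostly as genes of 1 exon. *Tdpoz2* is at chr3:93651542-93652686 and *Tdpoz1* at chr3:93669333-93676283. *Tdpoz4* follows at chr3:93796398-93797510 and *Tdpoz3* at chr3:93826020-93827117. *Tdpoz5* is at chr3:93960292-93961314, *Gm10697* at chr3:94071622-94072644 and *Gm10696* at chr3:94174412-94178193. *Tdpoz4* and *Tdpoz3* are read from the plus strand and the other 5 from the minus strand. *Tdpoz1* and *Gm10696* have annotated forms of 2 exons with the start codon in the last of them, whereas the annotated transcripts of *Tdpoz4*, *Tdpoz3*, *Tdpoz5* and *Gm10697* begin at the start codon itself.

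The copies are so alike that reads could not always be given to 1 of them. The first 60 coding bases of each member, from GENCODE transcripts, are shown to make this visible. Capitals mark bases that depart from the most frequent base at that position among the 7 members.
Tdpoz2: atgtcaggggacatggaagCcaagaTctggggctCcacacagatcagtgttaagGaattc
Tdpoz1: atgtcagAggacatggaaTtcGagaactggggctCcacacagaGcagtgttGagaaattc
Tdpoz4: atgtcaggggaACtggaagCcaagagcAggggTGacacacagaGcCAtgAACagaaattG
Tdpoz3: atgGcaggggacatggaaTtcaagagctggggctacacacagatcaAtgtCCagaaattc
Tdpoz5: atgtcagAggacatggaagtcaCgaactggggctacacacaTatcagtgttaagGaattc
Gm10697: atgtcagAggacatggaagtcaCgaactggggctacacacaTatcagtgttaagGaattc
Gm10696: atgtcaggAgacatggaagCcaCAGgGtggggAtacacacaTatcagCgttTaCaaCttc

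Of the 60 positions, 31 held the same base in all 7 members. *Tdpoz4* departed most often, at 13 positions, and *Gm10696* at 12. *Tdpoz5* and *Gm10697* were the same throughout, and their whole coding sequences of 1020 bases matched without a difference. Over whole coding sequences, identity between members ran from 72.4% (*Tdpoz4* with *Tdpoz5* or *Gm10697*) to 100%. Among the other pairs, *Tdpoz1* and *Tdpoz3* were closest, at 88.2%.

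**Figure D1:**
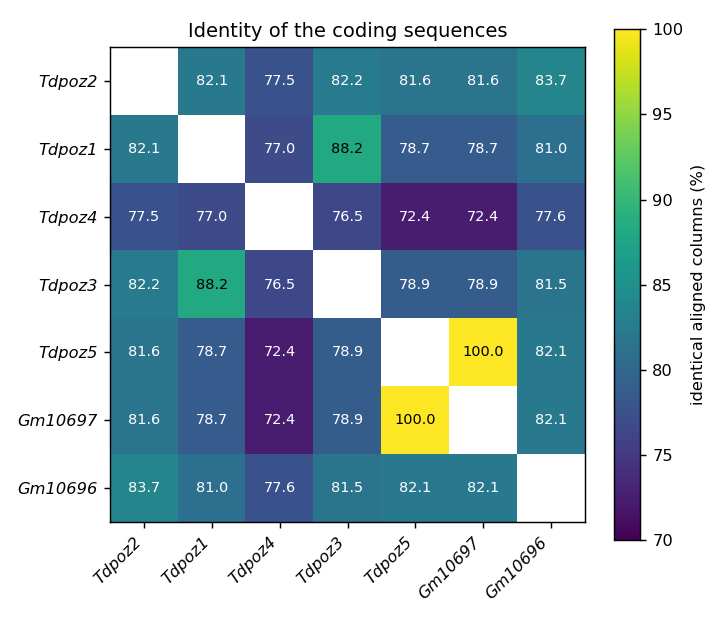
Identity between the coding sequences of the 7 members, as the percent of aligned columns with the same base (colour and printed value), with genes in their order along the chromosome. *Tdpoz5* and *Gm10697* are at 100%, and the row of *Tdpoz4* holds the lowest values, 72.4% to 77.6%.

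This bears on each value that follows. Every 50-base window of *Tdpoz5* and *Gm10697* occurs in another annotated transcript. The share was 66.2% for *Tdpoz3*, all of it shared with the annotated gene *Gm4982*, and 48.3% for *Tdpoz2*, 44.4% for *Tdpoz1*, 42.9% for *Gm10696* and 41.2% for *Tdpoz4*. With 100-base windows it was 46.7% for *Tdpoz3*, 24.9% for *Gm10696*, 23.8% for *Tdpoz1*, 22.1% for *Tdpoz2* and 11.6% for *Tdpoz4*. In the table, *Tdpoz5* and *Gm10697* had identical counts in all 6 libraries, so they give 1 measurement and not 2. The counts are estimates that split shared reads, and 6 or 7 of the 7 members had a count that was not whole (by over 0.005) in each library, against 35.2% to 36.3% of all genes with a count. No combination of the members and the 2 further family genes of the table gave whole sums in all 6 libraries. A shift between close copies, or from a copy outside the table, was therefore not measured here.

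Upstream sequence from RefSeq (build GRCm38.p6) was matched for 5 of the 7 members, and none was given for *Tdpoz2* and *Tdpoz3*. For *Gm10696* and *Tdpoz1*, whose annotated transcripts start well ahead of the coding sequence, the 100 bases before the outermost annotated start are shown, with the run TATATAA in capitals.
Gm10696: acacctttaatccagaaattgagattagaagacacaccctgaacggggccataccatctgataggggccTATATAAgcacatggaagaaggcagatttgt
Tdpoz1: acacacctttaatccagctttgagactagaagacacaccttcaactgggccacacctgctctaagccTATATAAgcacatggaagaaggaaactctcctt

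The first stretch is chr3:94178194-94178293 and the second chr3:93676311-93676410, both minus strand. They shared 79 of 104 aligned columns, and the run began 31 bases ahead of the *Gm10696* start and 33 bases ahead of that of *Tdpoz1*. It was chosen after these sequences had been read, and was searched in the members on the strand of the gene. Of the 32851 upstream windows of the genome's genes, each of 300 bases, 2.2% held it on that strand and 3.24% on either strand. The windows of *Tdpoz4*, *Tdpoz5* and *Gm10697*, which end inside the coding sequence, did not hold it on the strand of the gene. Of the other motifs searched, TATAAA was in 13.6% of all windows, TGCACAC in 4.4% and the Dux-type motif (TGATT, any 2 bases, ATCA) in 0.207%. None of these was in the windows of the 5 members on either strand.

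Library totals ran from 17408954 to 18176939 estimated counts, so depth was nearly even. *Dppa3*, the gene put into the cells, reached 278.79 and 278.82 FPKM in OE, against 6.09 and 3.89 FPKM in Con, and 130.96 FPKM in OE-D7 against 26.22 FPKM in Con-D7. All OE libraries thus lay above all Con libraries. The summed level of 6 ESC markers (*Pou5f1*, *Nanog* and others) was 1349.43 FPKM in OE-D7 and 1648.36 FPKM in Con-D7. At D0 it was 2549.36 and 2617.23 FPKM in OE, against 2432.50 and 2736.30 FPKM in Con.

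The family was expressed at a low level, and its summed counts were higher in OE in each pair. In all, 417.33 and 487.47 estimated counts fell on the 7 members in OE-1 and OE-2, against 214.21 and 228.29 in Con-1 and Con-2. The D7 libraries held 479.65 in OE and 300.90 in Con. As a share of each library's total this was 1.97-fold higher in OE in pair 1 (95% interval 1.67 to 2.33), 2.17-fold in pair 2 (1.85 to 2.55) and 1.63-fold in the D7 pair (1.41 to 1.89). A pair is the OE and the Con library of the same number, and these intervals cover counting error only. Each pair has 1 library a side, so these ratios carry no test. In bulk RNA, more cells that express a gene and more of its RNA per cell cannot be told apart.

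**Figure D2:**
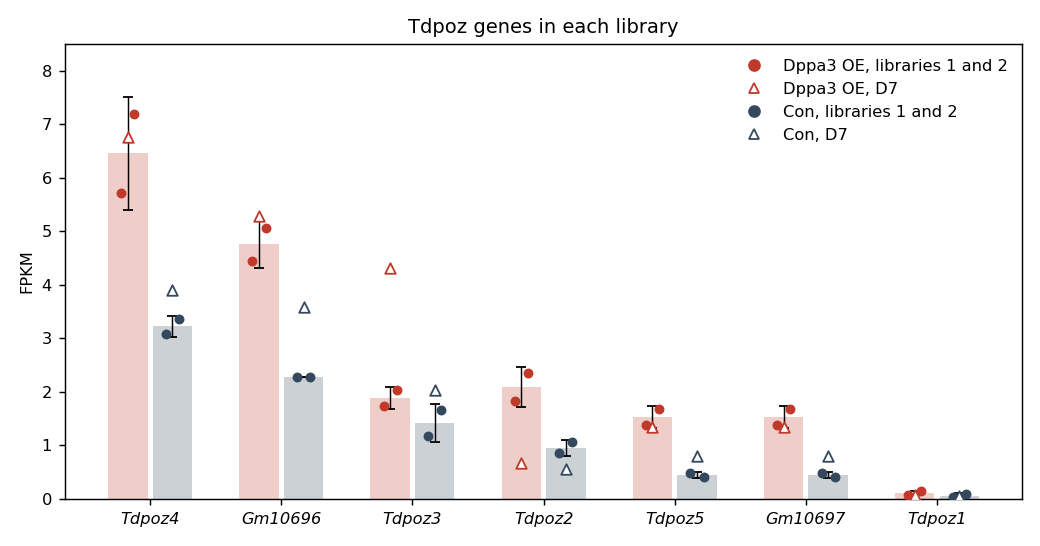
Level of each member (FPKM) in every library, with the OE group left of Con. Bars and error bars give the mean and SD of libraries 1 and 2, which are the filled points, and open triangles are the D7 libraries. The OE points of *Tdpoz4* sit between 5.71 and 7.2 FPKM, above all Con points of that gene, while *Tdpoz1* lies at or below 0.14 FPKM in each library.

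*Tdpoz4* had the highest level. It was at 5.71 and 7.2 FPKM in OE, against 3.09 and 3.36 FPKM in Con, and at 6.76 FPKM in OE-D7 against 3.9 FPKM in Con-D7. All 3 OE libraries were above all 3 Con libraries. How many of all genes were separated in this way was not counted, here or for the genes below. Next was *Gm10696*, at 4.45 and 5.07 FPKM in OE, against 2.28 FPKM in both Con libraries, and at 5.28 FPKM in OE-D7 against 3.58 FPKM in Con-D7. Here, too, the groups did not overlap, and the D0 means were 4.76 ± 0.44 FPKM for OE, against 2.28 FPKM for Con (SD, n = 2 each).

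*Tdpoz5* and *Gm10697*, as 1 measurement, were at 1.39 and 1.68 FPKM in OE, against 0.49 and 0.41 FPKM in Con, and at 1.34 FPKM in OE-D7 against 0.8 FPKM in Con-D7. The groups were apart in all 6 libraries. These levels rest on few reads, 25.07 and 29.6 estimated counts in OE and 8.95 and 7.38 in Con at D0 for each copy.

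*Tdpoz2* and *Tdpoz3* were less even. *Tdpoz2* was at 1.83 and 2.35 FPKM in OE, against 0.85 and 1.06 FPKM in Con, and at only 0.68 FPKM in OE-D7 against 0.55 FPKM in Con-D7. The OE libraries lay above the Con libraries at D0, and both D7 libraries lay below all 4 of these. The D7 levels of *Tdpoz2* rest on few reads, 13.27 estimated counts in OE-D7 and 11 in Con-D7. *Tdpoz3* was at 1.74 and 2.03 FPKM in OE, against 1.17 and 1.67 FPKM in Con, so that OE-1 and Con-2 nearly met. The D7 pair held 4.31 FPKM for OE, against 2.04 FPKM for Con, the first of these the highest level of the gene in any library.

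*Tdpoz1* was at 0.08 and 0.14 FPKM in OE, against 0.03 and 0.09 FPKM in Con, and at 0.07 FPKM in OE-D7 against 0.06 FPKM in Con-D7. Its estimated counts were between 1.34 and 5.48 in each library, so no difference was detectable at this depth. *Gm9125*, a family gene outside the 7 that shares 98.4% of aligned coding columns with *Tdpoz1* and all 100 of the upstream bases printed above, was higher, at 0.40 and 0.53 FPKM in OE and 0.25 and 0.33 FPKM in Con, and at 0.60 FPKM in OE-D7 against 0.34 FPKM in Con-D7. As the copies share reads, how the estimate divided them between this pair of genes was not tested.

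By mean level over 6 libraries the order was *Tdpoz4*, *Gm10696*, *Tdpoz3*, *Tdpoz2*, *Tdpoz5* with *Gm10697*, and *Tdpoz1*. Neighbours in this order overlapped, *Gm10696* with *Tdpoz4* (2.28 to 5.28 against 3.09 to 7.2 FPKM) as well as *Tdpoz3*, *Tdpoz2* and *Tdpoz5* among themselves. *Tdpoz1* lay below every value of the others.

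The first question was whether the family differed between *Dppa3* OE and Con ESCs at D0. On a log2 scale the members tested were 1.74 (*Tdpoz5* and *Gm10697*, SE 0.46 each), 1.10 (*Tdpoz2*, SE 0.39), 1.02 (*Gm10696*, SE 0.26), 0.97 (*Tdpoz4*, SE 0.30) and 0.36 (*Tdpoz3*, SE 0.39) higher in OE by edgeR's quasi-likelihood test. Their median, with *Tdpoz5* and *Gm10697* counted as 2, was 1.06, beside -0.01 over all genes tested. No gene passed an adjusted p of 0.05 in this fit (0%, 0 of 13494), and an unadjusted p under 0.05 was reached by 58 genes higher in OE and by 4 lower in OE. These 58 are 0.43% of all genes tested, and 5 of the 6 members were among them, *Tdpoz5* and *Gm10697* counted as 2. *Tdpoz3* was not. The members were chosen with earlier results of these data known, so their share here and in the fits below is no independent support. DESeq2 called 2 genes and limma 0 in the same 4 libraries, none of them a member. Without OE-1, Con-1, OE-2 or Con-2 in turn the count of genes called was 1, 4, 1 and 90, again with no member.

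Libraries of the same number varied together, so that a fit with the number as a block had a much smaller residual spread. In that fit 103 genes (0.763% of 13494) were called higher and 17 lower by edgeR, and 2 of the 6 members were among the higher ones. *Gm10696* rose by 1.02 on the log2 scale (SE 0.19, adjusted p = 0.0124) and *Tdpoz4* by 0.96 (SE 0.22, adjusted p = 0.0491), in 2 of 2 pairs each. *Tdpoz5* and *Gm10697* had a larger fold change and missed the threshold (1.74, SE 0.46, adjusted p = 0.118), as did *Tdpoz2* (1.10, adjusted p = 0.245) and *Tdpoz3* (0.37, adjusted p = 0.883). When rows with identical counts were summed, *Tdpoz5* with *Gm10697* passed (1.69, SE 0.34, adjusted p = 0.026, edgeR) and *Tdpoz4* did not (adjusted p = 0.0524). In the blocked DESeq2 fit (adjusted p = 0.787 for *Gm10696*) and without a filter on low genes (adjusted p = 0.11 for *Gm10696*) no member passed. With the block, limma called *Tdpoz4*, *Gm10696* and the 1 measurement of *Tdpoz5* and *Gm10697*. The blocked fit has no residual degrees of freedom left when 1 library is removed.

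**Figure D3:**
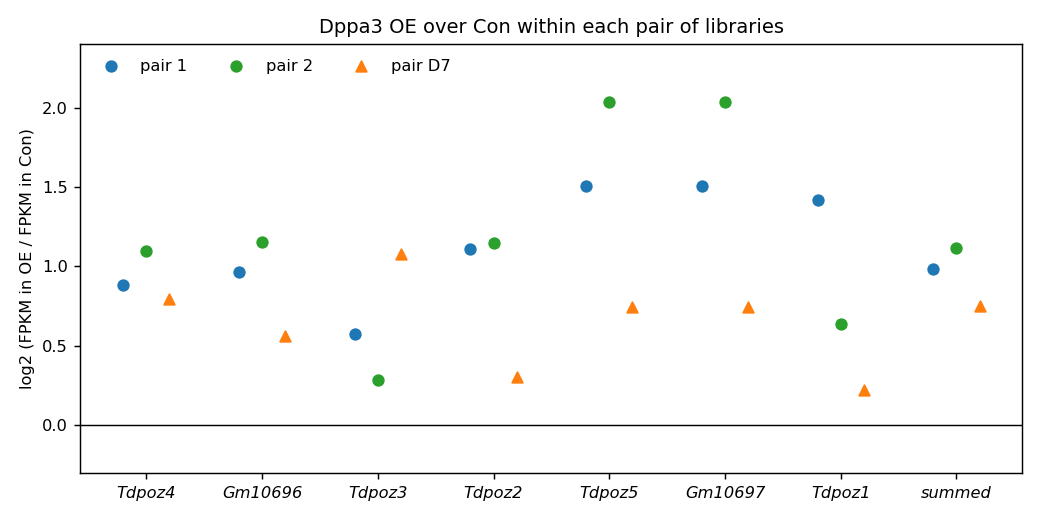
Log2 ratio of FPKM in OE to FPKM in Con for each member and for the sum of all 7, in pair 1 and pair 2 (circles) and the D7 pair (triangles); the line at 0 is no difference. Every point lies above 0, and the share of all genes with such ratios was not counted. For *Tdpoz3* the triangle is the highest of its 3 points and for the other members it is the lowest.

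The D7 pair gave ratios of the same direction. FPKM in OE over FPKM in Con was 1.73 for *Tdpoz4*, 1.48 for *Gm10696*, 1.68 for *Tdpoz5* and *Gm10697*, 1.24 for *Tdpoz2* and 2.11 for *Tdpoz3*. In pairs 1 and 2 it was 1.85 and 2.14 for *Tdpoz4*, 1.95 and 2.22 for *Gm10696*, 2.84 and 4.1 for *Tdpoz5* and *Gm10697*, 2.15 and 2.22 for *Tdpoz2*, and 1.49 and 1.22 for *Tdpoz3*. A test of whether the OE effect differed at D7 called no gene (0%, edgeR), with an unadjusted p under 0.05 for 47 positive and 22 negative differences and 2 calls by DESeq2, and the members' differences ran from -1.01 (*Tdpoz5* and *Gm10697*, SE 0.78) to 0.70 (*Tdpoz3*, SE 0.64), each with an adjusted p of 1. With the number as a block, edgeR called 199 genes (1.44% of 13809) in either direction and again no member, whose adjusted p was between 0.637 and 0.934. With 1 library a side at D7, the members' standard errors leave room for differences of this size in either direction.

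With all 6 libraries in 1 fit, and a term for D7, log2 fold changes of OE over Con ran from 0.60 (*Tdpoz3*, SE 0.30) to 1.37 (*Tdpoz5* and *Gm10697*, SE 0.38). No gene passed (0 of 13809, edgeR). An unadjusted p under 0.05 was reached by 125 genes higher in OE and by 54 lower in OE, and the 7 calls of DESeq2 held no member. With the number as a block no gene was called higher (0%) and 1 lower. All 6 members tested were higher at an unadjusted p under 0.05 in that fit, as were 4.4% of all genes tested, and their adjusted p was between 0.206 (*Tdpoz4*) and 0.557 (*Tdpoz3*) by edgeR.

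The second question was how the family differed between D7 and D0 libraries. No member passed the test, while many other genes did. With genotype as a term, edgeR called 935 genes higher (6.77% of 13809) and 422 lower (3.06%) in D7, and 0 of the 6 members. *Tdpoz4* was at 0.17 on the log2 scale (SE 0.22, adjusted p = 0.638), *Gm10696* at 0.40 (SE 0.21, adjusted p = 0.265), and *Tdpoz5* and *Gm10697* at 0.24 (SE 0.40, adjusted p = 0.714). The 2 members farthest from 0 went opposite ways, *Tdpoz3* at 0.87 (SE 0.31, adjusted p = 0.127) and *Tdpoz2* at -1.22 (SE 0.38, adjusted p = 0.102). At an unadjusted p under 0.05 *Tdpoz3* was higher and *Tdpoz2* lower by edgeR, as were 2258 and 1864 of all 13809 genes tested. Such a p was thus common among all genes. DESeq2 and limma called no member. Both D7 libraries carry number 3, so number and D7 label cannot be told apart, and the edgeR fit takes the 2 D7 libraries as independent. With the number as a random term instead (limma, an alternative chosen after seeing the data, correlation 0.74), 72 genes were called higher (0.521% of 13809) and 16 lower, and again 0 members, with adjusted p between 0.489 (*Tdpoz2*) and 0.91. The count of genes called depended on single libraries, being 0 without OE-D7, 28 without Con-D7, 429 without OE-1, 365 without OE-2 and 2533 without Con-2, and no member was called in any of these fits or without Con-1. *Tdpoz5* and *Gm10697* changed sign, to -0.20, without Con-D7, as their level in OE-D7 was below both D0 OE libraries and in Con-D7 above both D0 Con libraries.

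In D7 the median log2 fold change was 0.24 for the 6 members (*Tdpoz5* and *Gm10697* counted as 2) and -0.03 for all genes. Of 38 other genes of the 2-cell embryo tested, 26 rose in D7 (0 fell), with a median of 1.79. Those with the smallest p were *Gm2016* (1.85, adjusted p = 0.00385), *Usp17lb* (2.14, adjusted p = 0.005), a deubiquitinase gene of the *Usp17l* family, and *Usp17le* of the same family (1.88, adjusted p = 0.00565), all by edgeR. With the number as a random term 5 of the 38 passed, these 3 among them (adjusted p = 0.0252, 0.0457 and 0.0348, limma), with a median of 1.57. Without OE-D7 or Con-D7 none of the list passed, with medians of 1.70 and 1.88. Summed over the 38 genes, FPKM in D7 was 3.12-fold the D0 mean in OE and 2.88-fold in Con, while the sum of the 7 members was 1.08-fold in OE and 1.33-fold in Con. The members' sum equalled 1.18% of the 2-cell sum in OE-D7 and 1.09% in Con-D7. At D0 it equalled 3.80% and 3.15% in OE-1 and OE-2, against 2.51% and 2.27% in Con-1 and Con-2, so the D7 libraries lay below all 4 others. These shares carry no test, and the difference between the family and the list was not tested. The list itself holds families such as *Zscan4* and *Usp17l*, with counts that are not whole. Its genes may therefore share reads and need not be separate measurements.

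**Figure D4:**
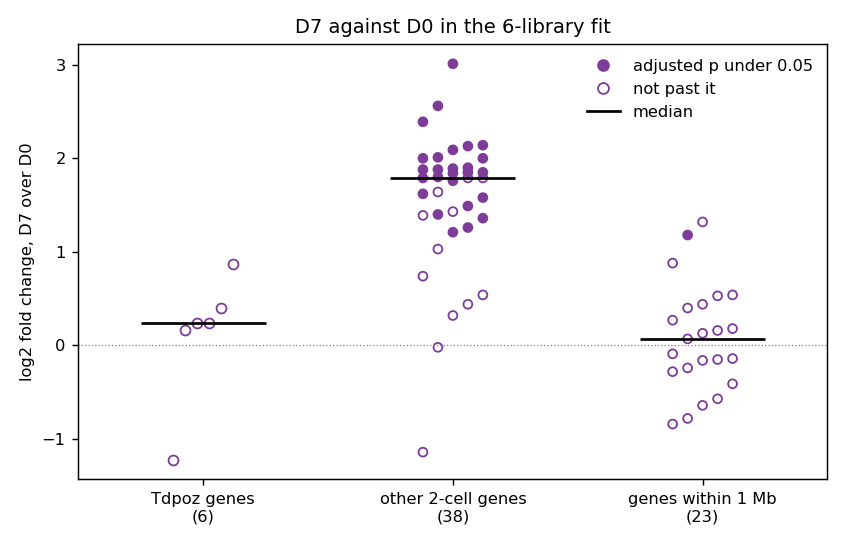
Log2 fold change of D7 over D0 in the fit of all 6 libraries for the 6 members tested, 38 other genes of the 2-cell embryo and 23 other genes within 1 Mb of the members. Filled points passed an adjusted p of 0.05 by edgeR, with libraries of the same number taken as independent, and lines are medians. The members run from -1.22 to 0.87 with a median of 0.24 and none filled, *Tdpoz5* and *Gm10697* being 2 points of 1 measurement. The 2-cell genes run from -1.14 to 3.01 with a median of 1.79.

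Several markers of other cells moved with the D7 label. Among 7 fibroblast and feeder markers, *Col1a1* was at 129.05 FPKM in OE-D7 and 37.98 FPKM in Con-D7, against 0.80 to 1.81 FPKM at D0, and it rose with *Col1a2*, *Col3a1* and *Postn*, 4 of the 5 tested. *Thy1*, the fifth, was at 20.97 FPKM in OE-D7 and 22.95 FPKM in Con-D7, against 30.84 to 52.99 FPKM at D0 (log2 fold change -0.95, adjusted p = 0.0593, edgeR), and made up most of the D0 sums. Those sums were 176.11 FPKM in OE-D7 and 70.62 FPKM in Con-D7, against 38.00 and 50.67 FPKM in OE and 31.95 and 55.43 FPKM in Con, with *Lum* at 0 in Con-D7 and in 3 of the D0 libraries.

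Of 6 trophectoderm markers, 3 of the 5 tested rose, and *Hand1* carried most of the D7 sum, at 150.20 FPKM in OE-D7 and 71.59 FPKM in Con-D7, against 1.02 to 4.42 FPKM at D0. Summed, they were at 186.59 FPKM in OE-D7 and 103.38 FPKM in Con-D7, against 21.65 and 24.31 FPKM in OE and 16.63 and 25.50 FPKM in Con, where *Tfap2c* was the main part. Primitive endoderm markers summed to 3.97 FPKM in OE-D7 and 3.21 FPKM in Con-D7, against 1.57 to 1.97 FPKM at D0, and 1 of the 2 tested rose, *Gata4* (1.68, adjusted p = 0.0327, edgeR). The other, *Sox7*, went the opposite way (-0.70) and was not called. It was at 0.43 FPKM in OE-D7 and 0.32 FPKM in Con-D7, against 0.36 to 0.86 FPKM at D0. Oocyte markers summed to 3.24 FPKM in OE-D7 and 3.01 FPKM in Con-D7, against 5.64 to 9.18 FPKM at D0, and the 1 tested, *Zp3*, was at -1.43 (adjusted p = 0.0543, edgeR). Of 6 ESC markers 2 fell. With the number as a random term, 2 trophectoderm markers still rose, 1 ESC marker fell and no fibroblast or endoderm marker passed. The part of these cells in the D7 values of the family was not tested. At D0, of the markers with enough reads to be tested (2 fibroblast, 3 trophectoderm, 2 endoderm, 1 oocyte and 6 ESC markers), none was called in OE against Con with or without the block. Among all genes 0% were called without the block and 0.763% higher with it, so no call among so few markers says little.

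In OE against Con at D0, the 2-cell list was nearer to the family. With the number as a block 12 of its 35 genes tested rose and none fell, with a median of 0.56, beside 1.06 for the members and 0.00 for all genes. Without the block none of the 35 passed, with a median of 0.57. The smallest p in the blocked fit were those of *Zscan4f* (0.48, adjusted p = 0.00523), *Gm2016* (0.63, adjusted p = 0.00555) and *Tcstv3* (0.95, adjusted p = 0.0259, edgeR). *Zscan4f*, which encodes a zinc finger protein of 2-cell embryos, was at 52.03 and 94.65 FPKM in OE, against 37.04 and 64.66 FPKM in Con, so its libraries of 1 group differed by a larger factor than those of *Tdpoz4*. Summed over the 2-cell list, FPKM in OE over FPKM in Con was 1.30, 1.57 and 1.57 in pairs 1, 2 and D7, beside 1.97, 2.17 and 1.69 for the sum of the members. Both were above 1 in each pair, and the difference between them was not tested.

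No gene of the ubiquitin ligase that Spop works with, or of its other adaptors, passed in OE against Con. Of 32 genes of adaptors with a MATH or BTB domain and of the Cul3 ligase, none was called in OE against Con with or without the block. Among all genes 0% were called without the block and 0.763% higher with it, so no call among these 32 says little. Their median was -0.01 in both fits, close to that of all genes. *Spop* was at 25.14 and 22.84 FPKM in OE, against 25.99 and 21.00 FPKM in Con (log2 fold change -0.02, SE 0.09 with the block). *Spopl*, its closest relative, was at 6.33 and 6.51 FPKM in OE, against 6.25 and 6.62 FPKM in Con (-0.10, SE 0.12). Between D7 and D0, 3 of the 32 were called higher (*Klhl13*, *Klhl7* and *Kctd10*) and 1 lower (*Nedd8*) by edgeR, beside 6.77% and 3.06% of all genes, and none with the number as a random term.

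Genes on both sides of the family did not pass either. Of 22 other genes within 1 Mb that were tested at D0, none was called in OE against Con with or without the block. Of all 13494 genes tested, 0 were called without the block, and 103 higher (0.763%) and 17 lower with it. With so few calls among all genes, no call among these 22 says little. Their log2 fold changes ran from -0.30 (*Sema6c*) to 0.38 (*Tdrkh*) in the blocked fit, with a median of 0.04. The other 20 were *S100a10*, *S100a11*, *Vps72*, *Cgn*, *Them4*, *Them5*, *Psmb4*, *Psmd4*, *Lysmd1*, *Mrpl9*, *Pi4kb*, *Selenbp1*, *Tuft1*, *Scnm1*, *Tnfaip8l2*, *Zfp687*, *Pogz*, *Rfx5*, *Pip5k1a* and *Snx27*. In D7 against D0, 1 of 23 was called, *Cgn* (1.18, adjusted p = 0.0287, edgeR), which encodes the tight junction protein cingulin, and none with the number as a random term (adjusted p = 0.165 for *Cgn*, limma). The family gene *Gm4858*, which lies outside the 7 and shares 81.0% of aligned coding columns with *Tdpoz4*, was at 3.15 and 4.27 FPKM in OE, against 2.14 and 2.00 FPKM in Con, and at 4.21 FPKM in OE-D7 against 2.92 FPKM in Con-D7. Its OE libraries were all above its Con libraries, as for *Tdpoz4*, and its log2 fold change at D0 was 0.78 with the block (adjusted p = 0.18, edgeR).

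Across the 6 libraries, the genes other than members whose log2(FPKM + 0.5) followed that of *Tdpoz4* most closely, of 13801 ranked, were *Xlr3c* (Pearson's r = 0.988), *Becn1* (0.986), *Crygd* (0.977), *Timm8a2* (0.970) and *Suclg1* (0.963). *Xlr3c*, an X-linked gene of the *Xlr* family, was at 9.42 and 14.96 FPKM in OE, against 2.55 and 3.30 FPKM in Con, with 10.73 FPKM in OE-D7 and 5.07 FPKM in Con-D7. *Becn1*, an autophagy gene, was at 25.65 and 26.83 FPKM in OE, against 23.05 and 23.73 FPKM in Con, so a high correlation came with a small difference in level. Among the members, r with *Tdpoz4* was 0.966 for *Tdpoz5* and *Gm10697*, 0.961 for *Gm10696*, 0.670 for *Tdpoz3*, 0.650 for *Tdpoz1* and 0.509 for *Tdpoz2*. With 6 points that share the split between OE and Con, these values only describe the libraries.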

How the data were processed

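The deposited table, made by the authors, holds for each gene an estimated count and an FPKM value in 6 libraries. Bowtie2, mm10 and RSEM are named in the study's methods, but HISAT with build GRCm38.p6 in the submitters' processing notes, so which aligner made the table is unsettled. The D7 count columns are headed as averages. The members and lists were chosen with earlier results of these data known, and family genes were matched by symbols and synonyms in RefSeq.

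Estimated counts were rounded and tested with edgeR 4.0.16 (R 4.3.3, TMM, two-sided quasi-likelihood test, Benjamini-Hochberg adjustment over all genes) on genes with a mean of at least 0.5 FPKM over the libraries of the fit; the threshold was an adjusted p of 0.05. limma 3.58.1 on log2(FPKM + 0.5), a scale that understates changes of low genes, DESeq2 1.42.0, other filters and size factors, summed identical rows and leaving out each library were alternatives. The SE given with edgeR values was worked back from the test, as the size of the log2 fold change over the square root of the F statistic. Of the edgeR fits, only OE against Con in the 4 D0 libraries, with and without the block, was also run on simulated data. Deviations of same-numbered libraries from their group means correlated at 0.86, 0.73 and 0.87 over 12565 genes (0.81 between libraries 1 and 2 alone). Those of other pairs correlated at -0.76 to -0.02. Centring on group means pushes these down once same-numbered libraries correlate, so they carry no separate information on the pairing. No source states a pairing, so it comes from the data, and blocked fits are given beside the main ones for OE against Con. D7 coincides with number 3, so D7 against D0 was refitted in limma with the number as a random term, and the difference of OE effects in edgeR with a block, both chosen after seeing the data. Totals of 17408954 to 18176939 counts limit precision for members with few reads. Named genes were the members, *Dppa3*, the 5 genes most correlated with the highest member, family and neighbour genes with a mean of at least 0.5 FPKM, up to 3 called genes by smallest p in other lists, *Spop* and *Spopl*; *Gm9125* was added after its values were seen. Motifs were searched on both strands. Protein sequences were not used here.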

Additional observations from a re-analysis of the deposited data

How the results depend on the processing

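The log2 fold changes of members in OE against Con kept their direction under every alternative, as did those of D7 against D0 apart from *Tdpoz5* and *Gm10697*, which ran from -0.20 (without Con-D7) to 0.80 (without OE-D7). Members passed the threshold only with the replicate block, in the 4 D0 libraries. Counts of genes called moved more. At D0 the count was 2 with DESeq2 in place of 0, and with the replicate block it was 120 by edgeR, 34 by DESeq2, 129 by limma, 32 without a filter, 99 with RLE size factors and 115 with identical rows summed. Leaving out 1 library gave 1 to 90 (without Con-2). Over 6 libraries it was 7 with DESeq2 in place of 0, and with the replicate block 1 by edgeR, 72 by DESeq2, 3 by limma, 19 without a filter, 1 with RLE and 1 with identical rows summed. In D7 against D0 it was 1357 by edgeR, 2494 by DESeq2 and 0 (without OE-D7) to 2533 (without Con-2) with 1 library left out, and 88 with the replicate number as a random term in limma. For the difference of OE effects it was 2 with DESeq2 and 199 with the replicate block in place of 0. The cause was not tested.

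With 2 libraries a group, 2 against 2 allows no exact two-sided p below 0.333. Low counts limit *Tdpoz1*, *Tdpoz5* and *Gm10697* most, and *Tdpoz2* as well in the D7 libraries. Shared reads limit all members.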
